A study of Homo sapiens with 6 samples.

Results

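Expression of 31 genes of cholesterol and fatty acid synthesis and of their control was followed in 3 human prostate cancer cell lines. The genes were 19 of the sterol pathway, 7 of fatty acid synthesis and 5 regulators of the sterol regulatory element binding proteins (SREBPs), taken from a fixed list of symbols that was drawn up with earlier results of these data known. All probe sets to which the array's annotation gives exactly 1 of these symbols were taken, which gave 61 of the 54675 probe sets on the array. They covered 28 of the 31 genes. FDFT1, CYP51A1 and FADS1 had no such probe set and were not analysed here.

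Cells make cholesterol from acetyl-CoA through mevalonate, isoprenoids, squalene and lanosterol, and make fatty acids from the same acetyl-CoA. SREBPs are membrane-bound transcription factors that switch on both sets of genes when sterol in the endoplasmic reticulum is low. SCAP escorts SREBPs to the Golgi for cleavage, and INSIG proteins hold SCAP back when sterol is plentiful. In prostate cancer cells, lipid synthesis is often raised and is linked to androgen signalling.

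TEM4-18 and TEM2-5 are lines that were derived, in separate rounds of the same migration experiment, from PC-3 cells that passed through a layer of lung microvascular endothelial cells. PC-3, an established line from a bone metastasis of prostate cancer, is the parent and the comparator of both. No line was treated or edited, and all 3 grew in DMEM/F12 with 10% FBS, so lipid supply from serum was shared by label. Each line was hybridised to 2 arrays, 6 in all, and each TEM line is a single isolate. Whether the 2 arrays of a line are separate cultures is not in the labels, so p-values measure only the spread between arrays, which may be technical.

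The deposited values are signal intensities in array units, and changes are differences of log2(intensity + 51.78) with the standard error (SE) of a limma fit. A gene was called higher or lower where the p adjusted by Benjamini-Hochberg over all 32747 tested probe sets was under 0.05. Each gene is represented by its brightest probe set. Where arrays of lines are said to overlap or not, this describes the values, and the share over all genes was not counted. Signals of different probe sets are not set against each other, because brightness depends on the probes. Because RNA was taken from whole cultures, a smaller share of cells with a transcript and less of it in each cell cannot be told apart.

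The arrays resembled each other in scale, with median signals of 266.9 to 316.9, and the correlation of log2 values within a line was 0.979 in TEM4-18, 0.980 in TEM2-5 and 0.976 in PC-3. The epithelial markers EPCAM, KRT8, KRT18, KRT19 and CDH1 were all lower in both TEM lines, with summed signals of 62193.5 and 68654.2 in TEM4-18, 75466.8 and 82589.0 in TEM2-5, and 174727.7 and 181499.3 in PC-3. CDH1, the gene of E-cadherin, had signals of 25.73 and 57.82 in TEM4-18, about the size of the constant of 51.78 added before taking logs. Of 12 endothelial markers, 5 passed the filter on low values. Signals of all 12 summed to 4152.9 and 5381.3 in TEM4-18, 4431.8 and 4627.9 in TEM2-5, and 2961.3 and 3183.8 in PC-3. KDR and ROBO4 were higher in both TEM lines and ESAM in TEM4-18. PECAM1 and EGFL7 passed the filter without a call, PECAM1 with signals of 868.2 and 505.2 in TEM4-18, 1041.5 and 850.2 in TEM2-5, and 1073.3 and 735.8 in PC-3. The defining endothelial genes CDH5, VWF, TEK, TIE1 and CLDN5 were below the filter, as were EMCN and ERG. The 3 luminal prostate markers measured summed to 3917.2 and 3461.2 in TEM4-18, 3361.4 and 3248.4 in TEM2-5, and 2252.7 and 1378.7 in PC-3. TMPRSS2 was higher in both TEM lines, KLK3 was uncalled and KLK2 was below the filter. The 5 fibroblast markers summed to 20041.3 and 23162.6 in TEM4-18, 21679.7 and 25081.2 in TEM2-5, and 8952.5 and 10509.7 in PC-3, mostly from COL1A1, which was higher in both TEM lines. PDGFRA was lower in TEM4-18 and higher in TEM2-5, LUM was lower in TEM4-18, and COL1A2 and DCN were uncalled. The part of these marker differences in the results on lipid genes was not tested.

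All 28 genes passed the filter on low values. In TEM4-18, 10 of the 28 were lower than in PC-3 and 1 was higher, 35.7% and 3.6% of them. Among all 13613 genes tested in that comparison, 16.0% were lower and 13.3% higher. In TEM2-5, 11 of the 28 were lower and 0 higher by limma, 39.3% and 0.0%, where 10.1% of all genes were lower and 8.98% higher. The unadjusted p was under 0.05 for 15 of the 28 (53.6%) in TEM4-18 and 14 of the 28 in TEM2-5, beside 40.4% and 32.9% of all genes. The median change of the 28 was -0.30 on the log2 scale in TEM4-18 and -0.24 in TEM2-5, beside -0.04 and -0.02 over all genes. Both comparisons use the same 2 PC-3 arrays, so a PC-3 array that was high or low for a gene moves both in the same direction. Of the 28, 4 were called and lower by at least 1.5-fold in TEM4-18, where 10.0% of all genes were, and 4 in TEM2-5, where 5.91% were.

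**Figure D1:**
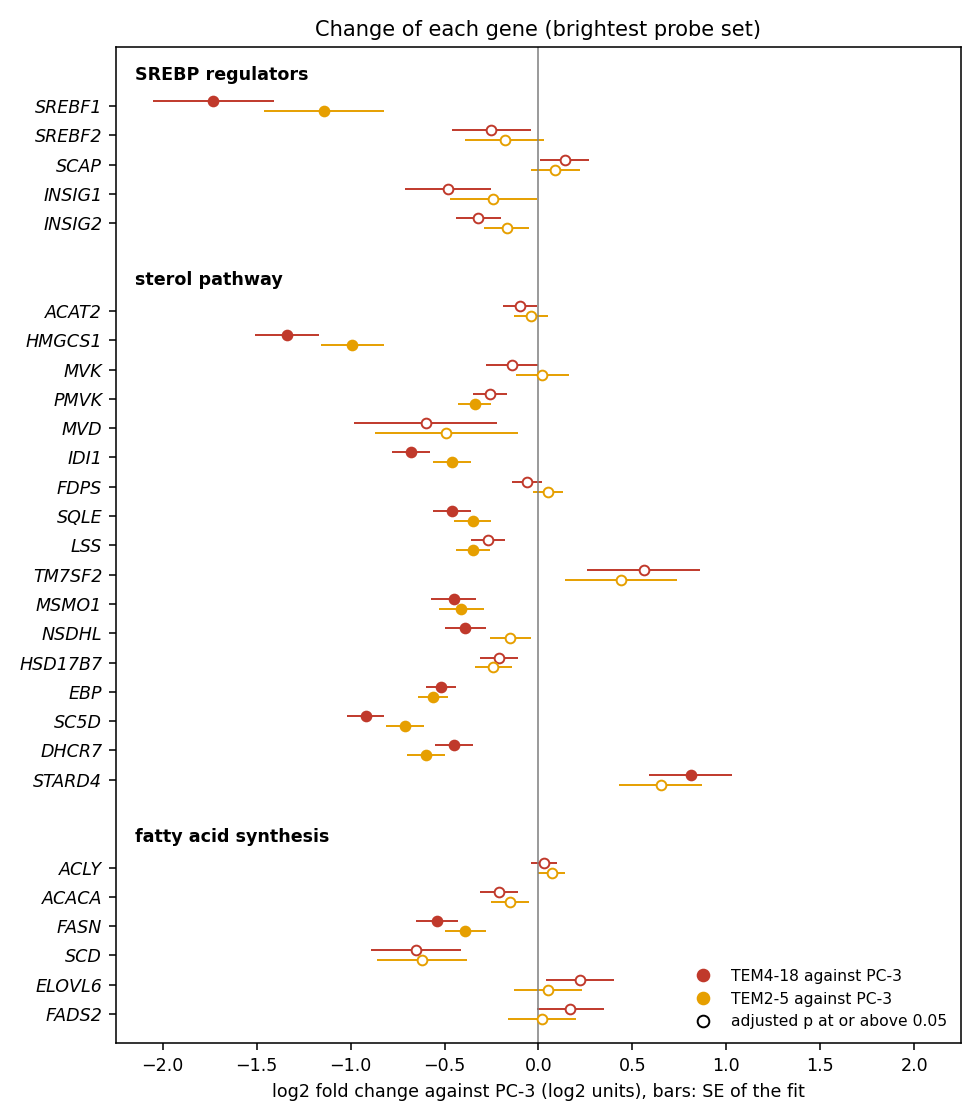
Log2 fold change of each of the 28 genes in TEM4-18 (red) and TEM2-5 (orange) against PC-3, with bars for the SE of the fit from 2 arrays per line; filled points passed the adjusted threshold. SREBF1 at -1.73 and HMGCS1 at -1.34 in TEM4-18 lie farthest to the left, and STARD4 at 0.81 farthest to the right.

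The direct comparison of the TEM lines gave 0 higher and 0 lower genes of the 28 by limma, where 0.492% of all genes were higher and 2.26% lower in TEM4-18 than in TEM2-5. At an unadjusted p under 0.05 there was 1 of 28, beside 14.8% of all genes. It was IDI1, with a change of -0.22 and an unadjusted p of 0.044 (adjusted p = 0.381). The changes ran from -0.59 for SREBF1 to 0.17 for STARD4, with a median of -0.06, beside -0.01 over all genes. So a gene called in only one TEM line is not thereby shown to differ between them.

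Among the regulators, SREBF1 had the largest change in the fit to all 6 arrays. It encodes the SREBP forms tied mainly to fatty acid synthesis. Its signal was 1044.7 and 458.6 in TEM4-18, 1405.5 and 821.0 in TEM2-5, and 2565.9 and 2305.5 in PC-3. Every TEM array lay below both PC-3 arrays, while the arrays of the 2 TEM lines overlapped each other and were more than 1.5-fold apart within each line. The change was -1.73 ± 0.32 in TEM4-18 (SE, 2 arrays per line, adjusted p = 0.00275), or 3.32-fold lower. In TEM2-5 it was -1.14 ± 0.32 (adjusted p = 0.0372), or 2.2-fold lower. SREBF1 has a second probe set that did not pass the filter, so the call rests on 1 probe set. Without the trend of variance on signal in the fit, neither call held (adjusted p = 0.0555 in TEM4-18 and 0.186 in TEM2-5). With 1 array left out, the change ran from -2.28 to -1.18 in TEM4-18 and from -1.51 to -0.77 in TEM2-5, each time without an array of that TEM line.

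The other 4 regulators passed in neither line. SREBF2, the gene of the SREBP tied mainly to cholesterol synthesis, had signals of 1149.8 and 1046.2 in TEM4-18, 1479.6 and 887.0 in TEM2-5, and 1394.1 and 1232.7 in PC-3. Its TEM2-5 arrays lay on either side of the PC-3 arrays, and the change was -0.25 ± 0.21 in TEM4-18 (adjusted p = 0.458) and -0.18 ± 0.21 in TEM2-5 (adjusted p = 0.627). All 3 of its probe sets stayed uncalled, with changes of -0.25 to -0.01 in TEM4-18 and -0.18 to 0.08 in TEM2-5.

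SCAP, the SREBP escort, had signals of 5942.5 and 4975.1 in TEM4-18, 5291.0 and 5219.2 in TEM2-5, and 4359.6 and 5547.4 in PC-3. The arrays of all 3 lines overlapped, with changes of 0.14 ± 0.13 and 0.09 ± 0.13 (adjusted p = 0.474 and 0.685 in TEM4-18 and TEM2-5). INSIG2, a retention protein of SCAP, had signals of 1875.7 and 1749.0 in TEM4-18, 1921.1 and 2117.5 in TEM2-5, and 2347.8 and 2198.9 in PC-3. All TEM arrays were below both PC-3 arrays, but the changes of -0.32 ± 0.12 and -0.17 ± 0.12 missed the threshold (adjusted p = 0.0882 and 0.420).

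INSIG1 is the other retention protein and is itself a target of SREBPs. It had signals of 2445.4 and 2378.3 in TEM4-18, 3006.5 and 2717.8 in TEM2-5, and 4671.7 and 2459.8 in PC-3. The second PC-3 array lay at the level of the TEM arrays and the first far above them. With both PC-3 arrays the changes were -0.48 ± 0.23 (adjusted p = 0.155) in TEM4-18 and -0.24 ± 0.23 (adjusted p = 0.533) in TEM2-5. Without the second PC-3 array INSIG1 was at -0.94 in TEM4-18 and -0.70 in TEM2-5. Without the first it was at -0.03 and 0.21, so by this probe set its direction in TEM2-5 rests on which PC-3 array is used. With both PC-3 arrays, all 3 probe sets of INSIG1 were uncalled and below 0. Their changes were -0.58 to -0.34 in TEM4-18 and -0.65 to -0.20 in TEM2-5.

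**Figure D2:**
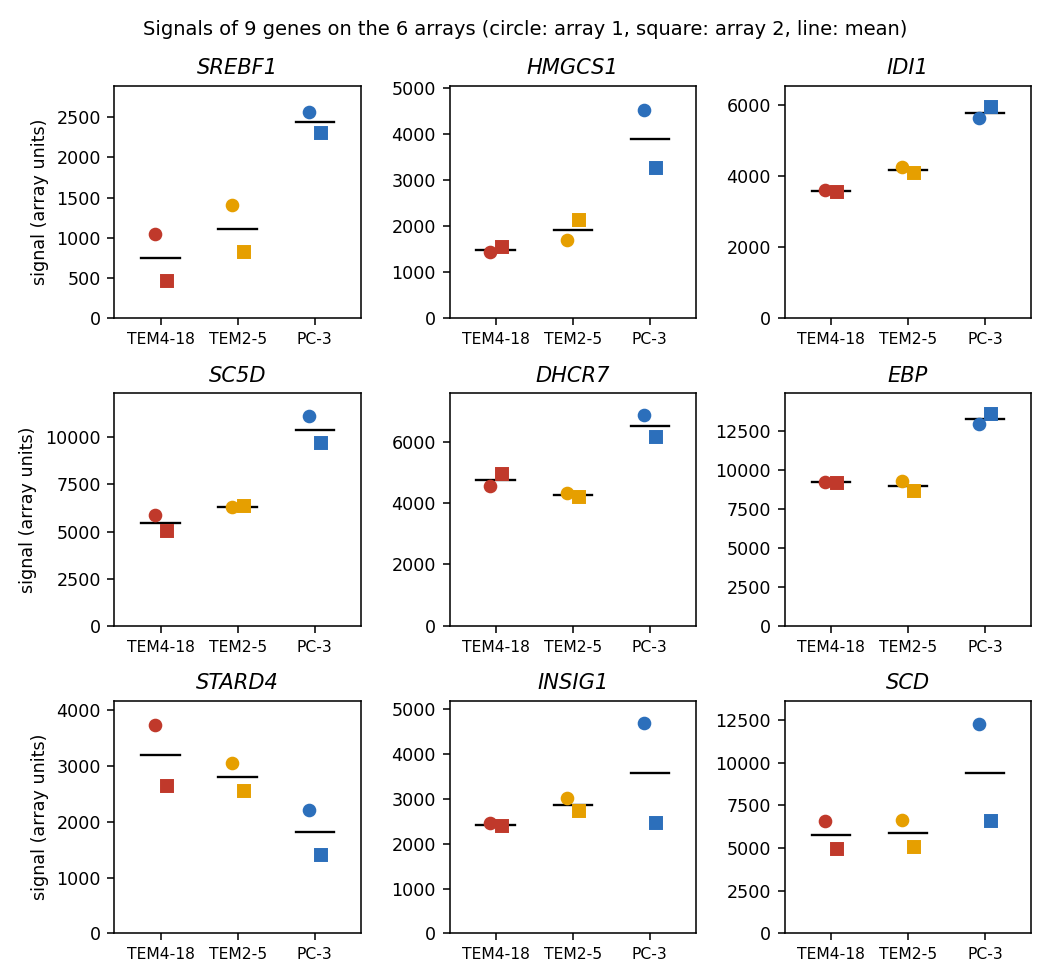
Deposited signal in array units on each of the 6 arrays for 9 genes; circles are array 1, squares array 2, and lines the mean of the 2. HMGCS1, IDI1, SC5D, DHCR7, EBP and SREBF1 have all TEM arrays below both PC-3 arrays and STARD4 has all of them above, whereas the second PC-3 array of INSIG1, at 2459.8, lies among the TEM arrays. The share of all genes with such an order was not counted.

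In the sterol pathway, 17 of 19 genes were measured. In TEM4-18, 8 of the 17 were lower (47.1%) and 1 was higher (5.9%) than in PC-3, with a median change of -0.39. In TEM2-5, 9 were lower (52.9%) and 0 higher by limma, with a median of -0.35. Of all tested genes, 16.0% were lower and 13.3% higher in TEM4-18, and 10.1% and 8.98% in TEM2-5. The unadjusted p was under 0.05 for 11 of 17 (64.7%) in each TEM line, beside 40.4% and 32.9% of all genes. With all probe sets averaged the medians were -0.24 in TEM4-18 and -0.19 in TEM2-5. The lower genes lay along the pathway: HMGCS1, PMVK and IDI1 in the mevalonate part, SQLE and LSS around squalene, and MSMO1, NSDHL, EBP, SC5D and DHCR7 after lanosterol.

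HMGCS1 makes HMG-CoA, from which mevalonate is formed, and had the largest decrease among the 17 sterol pathway genes in the fit to all 6 arrays. Its signal was 1444.2 and 1539.0 in TEM4-18, 1705.5 and 2131.1 in TEM2-5, and 4512.8 and 3268.3 in PC-3. All TEM arrays were below both PC-3 arrays, and both TEM4-18 arrays were below both TEM2-5 arrays. The change was -1.34 ± 0.17 in TEM4-18 (adjusted p = 0.000214), 2.52-fold lower, and -0.99 ± 0.17 in TEM2-5 (adjusted p = 0.00278), 1.99-fold lower. A second probe set of HMGCS1 gave -1.99 and -1.25, also called in both. Between TEM4-18 and TEM2-5 that probe set was at -0.74 ± 0.17 and narrowly missed the threshold by limma (unadjusted p = 0.00105, adjusted p = 0.0555). In TEM4-18 the call of HMGCS1 was the only one of the 11 that held under all 14 alternative settings. In TEM2-5 it was lost without the variance trend (adjusted p = 0.0545).

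IDI1 interconverts the isoprenoid building blocks made from mevalonate. Its signal was 3609.4 and 3564.9 in TEM4-18, 4266.3 and 4095.9 in TEM2-5, and 5626.5 and 5934.8 in PC-3. The 3 lines did not overlap, with TEM4-18 lowest and PC-3 highest. The change was -0.68 ± 0.10 in TEM4-18 (adjusted p = 0.000436) and -0.46 ± 0.10 in TEM2-5 (adjusted p = 0.00806). The 4 probe sets of IDI1 disagreed. A second was lower in both lines, at -0.57 and -0.38, while another was higher in TEM4-18, at 0.55 ± 0.17 (adjusted p = 0.0315), and at 0.43 uncalled in TEM2-5. With all 4 averaged, IDI1 changed by -0.06 in TEM4-18 and -0.09 in TEM2-5, both uncalled.

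SC5D is the sterol desaturase that acts just before DHCR7 late in the pathway. Its signal was 5869.9 and 5037.4 in TEM4-18, 6318.0 and 6332.7 in TEM2-5, and 11111.0 and 9675.6 in PC-3. All TEM arrays were far below the PC-3 arrays. The change was -0.92 ± 0.10 in TEM4-18 (adjusted p = 0.000102), 1.90-fold lower, and -0.71 ± 0.10 in TEM2-5 (adjusted p = 0.00120), 1.63-fold lower. The other SC5D probe set pointed the opposite way without passing, at 0.49 and 0.33. With both averaged, the changes were -0.22 in TEM4-18 and -0.19 in TEM2-5 and the calls were lost.

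DHCR7 catalyses the last step to cholesterol. Its signal was 4557.1 and 4934.3 in TEM4-18, 4329.0 and 4198.5 in TEM2-5, and 6873.6 and 6143.3 in PC-3. All TEM arrays were below both PC-3 arrays, and here both TEM2-5 arrays were also below both TEM4-18 arrays. The change was -0.45 ± 0.10 in TEM4-18 (adjusted p = 0.00715) and -0.60 ± 0.10 in TEM2-5 (adjusted p = 0.00243). In TEM2-5 this was the only one of the 11 calls to hold under all 14 alternatives, with a highest adjusted p of 0.0492. In TEM4-18 the call was lost without PC-3 array 1, at -0.37, and without TEM4-18 array 1, at -0.39. It was also lost there without the variance trend (adjusted p = 0.062) and with probe sets averaged, at -0.38 (adjusted p = 0.0607). The second probe set of DHCR7 was uncalled in both lines, at -0.31 in TEM4-18 and -0.35 in TEM2-5 (adjusted p = 0.25 and 0.228).

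STARD4, a carrier that moves cholesterol between membranes, ran the other way. It had signals of 3739.6 and 2638.1 in TEM4-18, 3059.9 and 2543.2 in TEM2-5, and 2211.2 and 1406.3 in PC-3. All TEM arrays lay above both PC-3 arrays. The change was 0.81 ± 0.22 in TEM4-18 (adjusted p = 0.0181), 1.76-fold higher, and 0.65 ± 0.22 in TEM2-5 (adjusted p = 0.0684), which missed the threshold. The call in TEM4-18 was lost without PC-3 array 2, at 0.50, and without TEM4-18 array 1, at 0.57. In TEM2-5 STARD4 passed without PC-3 array 1, at 0.96 (adjusted p = 0.0158), and was at 0.33 without PC-3 array 2 (adjusted p = 0.371).

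The remaining lower genes of the sterol pathway changed by less than 1.5-fold. EBP, the isomerase before SC5D, was lower, at -0.52 ± 0.08 in TEM4-18 (adjusted p = 0.000735) and -0.56 ± 0.08 in TEM2-5 (adjusted p = 0.000916). Its 4 probe sets spanned -0.55 to 0.49 in TEM4-18, and both calls were lost when they were averaged. SQLE, the epoxidase of squalene, was lower, at -0.46 and -0.35 (adjusted p = 0.00830 in TEM4-18 and 0.0413 in TEM2-5). MSMO1, an oxidase that removes methyl groups from sterols, was lower, at -0.45 and -0.41 (adjusted p = 0.0213 and 0.0458). NSDHL, which takes part in the same demethylation, passed in TEM4-18 alone, at -0.39 (adjusted p = 0.0250), beside -0.15 in TEM2-5 (adjusted p = 0.420). Its second probe set was uncalled, at -0.23 in TEM4-18 and -0.14 in TEM2-5. With both averaged, the call in TEM4-18 held, at -0.31 (adjusted p = 0.0399).

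PMVK, the phosphomevalonate kinase, and LSS, the synthase of lanosterol, passed in TEM2-5 alone. PMVK was at -0.26 in TEM4-18 (adjusted p = 0.0568) and -0.34 in TEM2-5 (adjusted p = 0.0268). LSS was at -0.27 in TEM4-18 (adjusted p = 0.0565) and -0.35 in TEM2-5 (adjusted p = 0.0303). For both genes, by the brightest probe set, every TEM array was below both PC-3 arrays, and the values of the 2 lines were within 1 SE of each other. The other tested probe sets of LSS were uncalled, at -0.21 and 0.11 in TEM4-18 and -0.22 and 0.46 in TEM2-5. With all 3 averaged, LSS was at -0.12 in TEM4-18 and -0.04 in TEM2-5, both uncalled.

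The last 6 measured genes of the pathway passed in neither comparison by their brightest probe set. ACAT2, which makes the acetoacetyl-CoA used by HMGCS1, was at -0.10 in TEM4-18 and -0.04 in TEM2-5. The farnesyl diphosphate synthase FDPS was at -0.06 and 0.05, the mevalonate kinase MVK at -0.14 and 0.02, and the sterol reductase HSD17B7 at -0.21 and -0.24. A dimmer probe set of MVK was lower in TEM4-18, at -0.52 (adjusted p = 0.0293), and uncalled at -0.42 in TEM2-5. MVD, which makes isopentenyl diphosphate, had low signals of 181.8 to 429.4 and changes of -0.60 ± 0.38 and -0.49 ± 0.38. TM7SF2, a reductase of the lanosterol branch, was at 0.56 ± 0.30 and 0.44 ± 0.30. These 6 had adjusted p-values of 0.165 to 0.639 in TEM4-18 and 0.146 to 0.954 in TEM2-5.

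To show the sequence around the starts of the 6 genes called with a change of at least 1.5-fold in at least 1 TEM line, windows of 250 bases before to 50 after the start are given for SREBF1, HMGCS1, IDI1, SC5D, DHCR7 and STARD4. SREBF2 is added as the only one of the 27 genes searched that had the SREBP element. For a gene with several starts, the first window listed is shown. The windows are from RefSeq on GRCh38.p14, 5′ to 3′ on the strand of the gene: SREBF1 at chr17:17836937-17837236 (minus), HMGCS1 at chr5:43313363-43313662 (minus), IDI1 at chr10:1056655-1056954 (minus), SC5D at chr11:121292521-121292820 (plus), DHCR7 at chr11:71448344-71448643 (minus), STARD4 at chr5:111512486-111512785 (minus) and SREBF2 at chr22:41832855-41833154 (plus). Capitals mark CCAAT or its reverse complement ATTGG and, in SREBF2, the sterol regulatory element core TCACCCCAC.
SREBF1: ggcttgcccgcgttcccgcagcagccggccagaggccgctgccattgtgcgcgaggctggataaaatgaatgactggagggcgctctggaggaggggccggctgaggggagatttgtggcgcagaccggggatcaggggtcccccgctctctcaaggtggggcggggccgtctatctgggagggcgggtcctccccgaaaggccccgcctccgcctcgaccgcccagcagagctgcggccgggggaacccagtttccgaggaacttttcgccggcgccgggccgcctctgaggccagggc
HMGCS1: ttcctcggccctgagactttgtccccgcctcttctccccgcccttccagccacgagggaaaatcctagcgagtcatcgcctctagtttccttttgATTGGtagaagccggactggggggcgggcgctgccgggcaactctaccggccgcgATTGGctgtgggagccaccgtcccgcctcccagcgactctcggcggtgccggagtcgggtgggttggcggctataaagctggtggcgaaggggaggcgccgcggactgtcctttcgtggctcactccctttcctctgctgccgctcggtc
IDI1: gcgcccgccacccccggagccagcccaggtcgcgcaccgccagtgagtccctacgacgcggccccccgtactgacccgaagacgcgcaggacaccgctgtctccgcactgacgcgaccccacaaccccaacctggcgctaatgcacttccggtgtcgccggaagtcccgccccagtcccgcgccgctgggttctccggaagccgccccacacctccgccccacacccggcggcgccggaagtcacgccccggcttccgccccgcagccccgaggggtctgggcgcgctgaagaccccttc
SC5D: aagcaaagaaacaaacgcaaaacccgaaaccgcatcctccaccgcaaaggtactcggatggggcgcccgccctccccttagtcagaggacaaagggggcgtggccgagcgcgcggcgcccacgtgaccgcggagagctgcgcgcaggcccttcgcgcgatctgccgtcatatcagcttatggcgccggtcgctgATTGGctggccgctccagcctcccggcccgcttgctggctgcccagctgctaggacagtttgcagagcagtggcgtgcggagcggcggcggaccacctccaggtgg
DHCR7: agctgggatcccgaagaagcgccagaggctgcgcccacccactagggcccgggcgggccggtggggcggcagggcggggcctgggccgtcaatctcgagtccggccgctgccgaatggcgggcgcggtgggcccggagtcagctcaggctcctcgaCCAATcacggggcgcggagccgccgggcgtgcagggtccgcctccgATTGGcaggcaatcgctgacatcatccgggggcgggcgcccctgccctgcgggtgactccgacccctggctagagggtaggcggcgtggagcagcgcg
STARD4: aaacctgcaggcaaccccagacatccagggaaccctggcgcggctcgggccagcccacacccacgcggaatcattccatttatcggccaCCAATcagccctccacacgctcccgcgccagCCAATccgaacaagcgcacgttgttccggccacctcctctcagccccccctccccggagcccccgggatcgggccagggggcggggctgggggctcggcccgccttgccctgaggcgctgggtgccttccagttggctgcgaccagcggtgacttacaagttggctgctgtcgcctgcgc
SREBF2: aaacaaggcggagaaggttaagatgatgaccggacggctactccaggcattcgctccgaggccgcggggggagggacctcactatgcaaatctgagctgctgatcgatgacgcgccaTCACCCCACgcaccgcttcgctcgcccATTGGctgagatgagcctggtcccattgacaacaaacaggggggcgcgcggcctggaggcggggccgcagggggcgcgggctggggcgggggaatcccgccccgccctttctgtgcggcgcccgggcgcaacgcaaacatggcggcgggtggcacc

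The SREBP binding element was searched as TCACNCCAC on both strands, and the CCAAT box, bound by NF-Y, as CCAAT on both strands. RefSeq windows were found for 27 of the 31 genes, 37 windows in all because some genes have several starts, some of which overlap. ACAT2, FDFT1, SQLE and FASN had no window and were not searched. CCAAT was present in 24 of the 37 windows (64.9%) and in 12155 of all 35116 windows (34.6%). By gene, 20 of 27 had it in at least 1 window. In the printed window of HMGCS1 it began 155 and 100 bases before the start, in DHCR7 94 and 48, in STARD4 161 and 130, and in SC5D 56. The printed windows of SREBF1 and IDI1 held neither motif. HMGCS1 and DHCR7 have another listed window each without CCAAT, IDI1 has 2 others with it, and SC5D has an overlapping one with the same copy.

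The SREBP element core in these exact letters was present in 1 of the 37 windows (2.7%), that of SREBF2 at 133 bases before the start, and in 396 of all 35116 windows (1.13%). SREBP elements vary in sequence and can lie outside the window. A match is a string of letters and not a bound site, and its absence says only that these letters are not in this window.

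In fatty acid synthesis, 6 of 7 genes were measured. In each TEM line 1 of the 6 was lower (16.7%) and 0 higher by limma. Of all tested genes, 16.0% were lower and 13.3% higher in TEM4-18, and 10.1% and 8.98% in TEM2-5. The unadjusted p was under 0.05 for 2 of the 6 in each line, beside 40.4% and 32.9% of all genes. The median change was -0.09 in TEM4-18 and -0.07 in TEM2-5. It was not stable: -0.26 and -0.20 with all probe sets averaged, -0.05 and -0.01 without PC-3 array 1, and -0.14 and -0.15 without PC-3 array 2. In TEM2-5 it was -0.25 without TEM2-5 array 1 and -0.02 without TEM2-5 array 2. The lower gene was FASN, the fatty acid synthase, at -0.54 ± 0.11 in TEM4-18 (adjusted p = 0.00534) and -0.39 ± 0.11 in TEM2-5 (adjusted p = 0.0396). Its signals lay between 4368.8 and 5637.7 on the TEM arrays and between 6762.1 and 7170.9 on the PC-3 arrays, without overlap.

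SCD, the desaturase that makes monounsaturated fatty acids, had signals of 6560.1 and 4935.7 in TEM4-18, 6637.9 and 5069.6 in TEM2-5, and 12233.5 and 6580.8 in PC-3. The second PC-3 array lay close to the TEM arrays. The changes of -0.65 ± 0.24 and -0.62 ± 0.24 did not pass (adjusted p = 0.0767 in TEM4-18 and 0.115 in TEM2-5). The 3 other probe sets of SCD were lower in TEM4-18, at -1.06 to -0.82, and none of the 3 passed in TEM2-5. With all its probe sets averaged, SCD was called lower in TEM4-18, at -0.86 (adjusted p = 0.0182), and uncalled in TEM2-5. Without PC-3 array 2 the brightest probe set passed in both lines, at -1.10 in TEM4-18 and -1.07 in TEM2-5, while without PC-3 array 1 it was at -0.21 and -0.18 (adjusted p = 0.508 and 0.608).

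The other 4 genes of fatty acid synthesis passed in neither line by their brightest probe set. ACLY, which makes cytosolic acetyl-CoA from citrate, was at 0.03 in TEM4-18 and 0.07 in TEM2-5, with signals of 16528.2 to 17750.1 on the 6 arrays. ACACA, the acetyl-CoA carboxylase, was at -0.21 and -0.15, although a second, dimmer probe set was lower in TEM4-18, at -1.13 ± 0.29 (adjusted p = 0.0145). With both averaged, ACACA was called lower in TEM4-18, at -0.67 (adjusted p = 0.00408), and in TEM2-5, at -0.44 (adjusted p = 0.0446). The elongase ELOVL6 was at 0.22 and 0.05, while a dimmer probe set of it was higher in TEM4-18, at 1.02 ± 0.25 (adjusted p = 0.0120). With its 3 probe sets averaged, ELOVL6 was called higher in TEM4-18, at 0.49 (adjusted p = 0.0391), and uncalled in TEM2-5. The desaturase FADS2 was at 0.17 and 0.02.

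Counting probe sets instead of genes, 57 of the 61 passed the filter. In TEM4-18, 19 of the 57 were lower and 3 higher, where 12.8% of all tested probe sets were lower and 12.8% higher. In TEM2-5, 14 were lower and 0 higher by limma (23 of 57, 40.4%, at an unadjusted p under 0.05, beside 29.5% of all), where 7.59% of all were lower and 8.67% higher. Between TEM4-18 and TEM2-5, 0 were called in either direction by limma (5 of 57, 8.77%, at an unadjusted p under 0.05, beside 12.5% of all), where 1.43% of all were lower and 0.357% higher in TEM4-18. The sterol pathway held 13 lower and 2 higher of its 34 tested probe sets in TEM4-18, and 12 lower in TEM2-5. Fatty acid synthesis held 5 lower and 1 higher of 14 in TEM4-18, and 1 lower in TEM2-5.

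**Figure D3:**
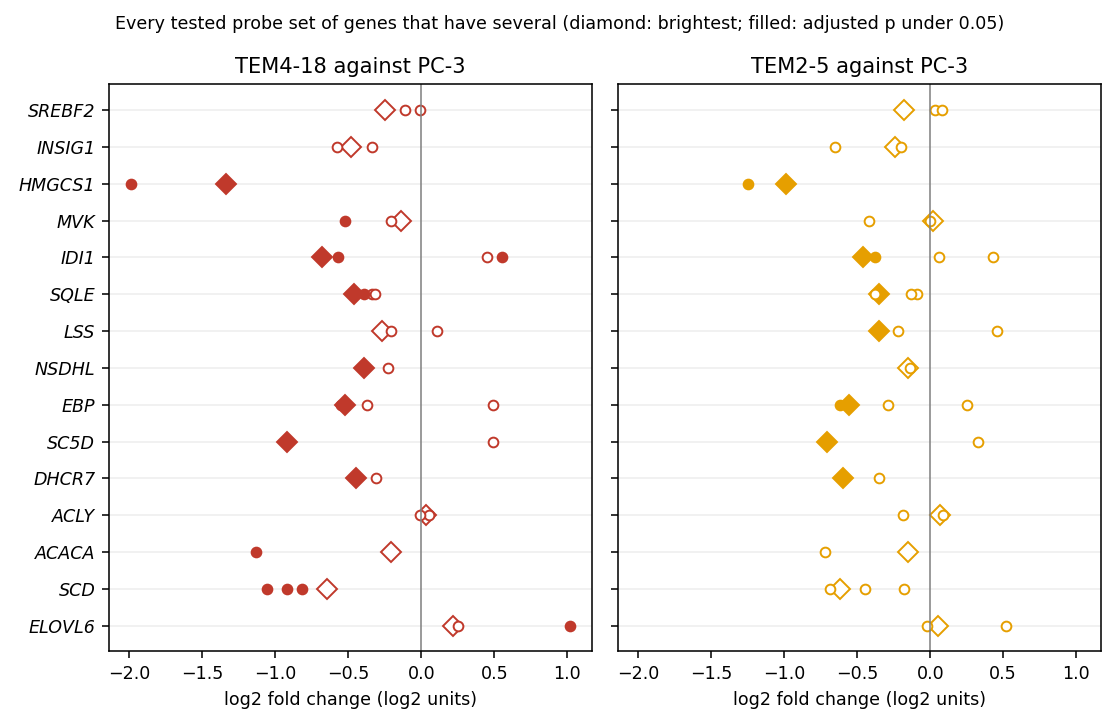
Log2 fold change of every tested probe set of the 15 genes that have several, in TEM4-18 (left) and TEM2-5 (right) against PC-3; diamonds are the brightest probe set and filled symbols passed the adjusted threshold. The probe sets of HMGCS1 and SCD all lie left of 0, while those of IDI1, EBP, SC5D and LSS lie on both sides.

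Several genes differed between the 2 arrays of a line by as much as between lines. The first PC-3 array was above the second in 22 of the 28 genes (78.6%), where 50.7% of all tested genes were. For TEM4-18 and TEM2-5 it was 20 of 28 each (71.4%), where 53.6% and 52.3% of all genes were. The ratio of the first to the second PC-3 array was 1.96 for TM7SF2, 1.90 for INSIG1, 1.86 for SCD, 1.57 for STARD4, 1.38 for HMGCS1 and 1.33 for MSMO1. In TEM4-18 the ratio for SREBF1 was 2.28, and in TEM2-5 it was 1.71. With 2 arrays per line, which array is typical was not tested.

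**Figure D4:**
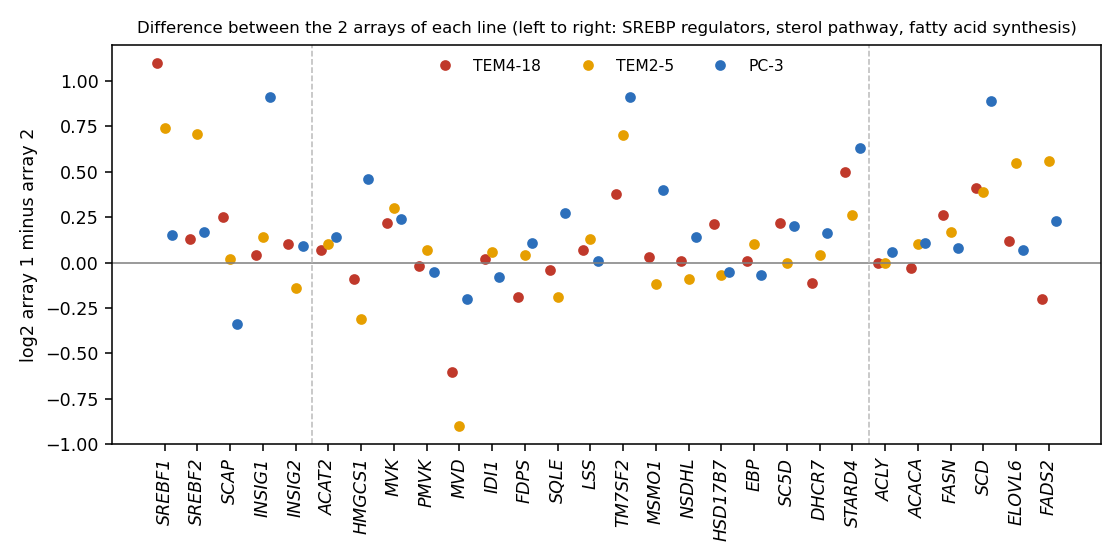
Log2 difference between array 1 and array 2 of each line for the 28 genes, for TEM4-18 (red), TEM2-5 (orange) and PC-3 (blue); points above 0 are higher on array 1. The first array was higher for 20 genes in TEM4-18, 20 in TEM2-5 and 22 in PC-3.

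Leaving out PC-3 array 1 moved the counts, here and over all tested probe sets. Without it, 6 of the 28 were lower and 2 higher in TEM4-18, with a median of -0.24, and 5 were lower and 1 higher in TEM2-5, with a median of -0.15. Without PC-3 array 2, 12 were lower in TEM4-18 and 8 in TEM2-5. In TEM4-18 the loss of PC-3 array 1 took the calls of SQLE (-0.32), MSMO1 (-0.25), NSDHL (-0.32) and DHCR7 (-0.37). MSMO1 and NSDHL also lost theirs without either TEM4-18 array, at -0.47 to -0.44 and -0.39 to -0.38. TM7SF2 became called higher without PC-3 array 1, at 1.02, and was at 0.11 without PC-3 array 2 (adjusted p = 0.836).

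In TEM2-5, 4 of the 28 were lower without TEM2-5 array 2 and 6 without TEM2-5 array 1. PMVK, LSS and FASN lost their calls without any one of the PC-3 or TEM2-5 arrays, with values of -0.37 to -0.30, -0.41 to -0.28 and -0.48 to -0.30. SQLE and MSMO1 lost theirs without PC-3 array 1, at -0.22 and -0.21, and without either array of TEM4-18 or TEM2-5. SREBF1 lost its call without PC-3 array 1 (-1.06), PC-3 array 2 (-1.21) and TEM2-5 array 2 (-0.77). IDI1 lost its call without PC-3 array 2 (-0.42) and TEM2-5 array 2 (-0.43).

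Beyond the 28, 50 further lipid genes were listed by role, of which 44 were tested. In TEM4-18, 12 of the 44 were lower and 2 higher (27.3% and 4.5%), with a median of -0.15. In TEM2-5, 7 were lower and 3 higher (15.9% and 6.8%), with a median of -0.10. Of all tested genes, 16.0% were lower and 13.3% higher in TEM4-18, and 10.1% and 8.98% in TEM2-5. The medians over all genes were -0.04 and -0.02. Of the 5 tested genes of SREBP processing and sterol sensing, which include the proteases that cut SREBPs, 0 were called in any comparison by limma, and 0 had an unadjusted p under 0.05.

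LIPA, the lysosomal lipase that frees cholesterol from its esters, had signals of 4517.5 and 4964.9 in TEM4-18, 8753.6 and 9123.8 in TEM2-5, and 18661.9 and 15571.5 in PC-3. The 3 lines did not overlap. It was lower, at -1.84 ± 0.10 in TEM4-18 (adjusted p = 7e-07) and -0.93 ± 0.10 in TEM2-5 (adjusted p = 0.000203), and lower in TEM4-18 than in TEM2-5, at -0.91 ± 0.10 (adjusted p = 0.000985). NPC2, which hands lysosomal cholesterol on for export, was the only other gene of the 44 called between the TEM lines. Its signals were 8842.8 and 8546.1 in TEM4-18 and 12589.6 and 12161.8 in TEM2-5, a change of -0.51 ± 0.07 (adjusted p = 0.00547).

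In triglyceride and fatty acid supply, DGAT1, which adds the last acyl chain of triglycerides, was lower, at -1.21 ± 0.11 in TEM4-18 (adjusted p = 3.06e-05) and -1.01 ± 0.11 in TEM2-5 (adjusted p = 0.000248). MID1IP1, an activator of acetyl-CoA carboxylase, was lower, at -1.23 ± 0.14 and -0.97 ± 0.14 (adjusted p = 0.000115 and 0.00109). The elongase ELOVL7 fell to 140.2 and 28.74 in TEM4-18 and 193.3 and 156.1 in TEM2-5, against 828.4 and 694.7 in PC-3. It passed the filter through PC-3. The TEM4-18 signals and 1 of the TEM2-5 signals lie under the filter value of 174.1, and 1 TEM4-18 signal lies under 51.78, so no size is given for the called decrease. FNTB, a subunit of the farnesyl transferase, was higher, at 1.12 ± 0.16 and 0.84 ± 0.16 (adjusted p = 0.000442 and 0.00462).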

How the data were processed

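Total RNA of 3 cell lines was measured on 6 short-oligonucleotide arrays. The authors deposited 1 intensity per probe set, on a linear scale. The submitters' processing notes name MAS5 as the software, without a version. The 2% trimmed mean was 1500.17 to 1500.18 on every array, so the deposited scaling was kept. The genome build of the probe design is not given in the sources used here. Of 54675 probe sets, 62 were controls, 41097 had 1 gene symbol, 1801 several and 11777 none, and no gene was named from one with several. A match of gene IDs to RefSeq on GRCh38.p14 changed 0 and left 54 unmatched, and promoter windows are RefSeq's on that build. MAS5 subtracts mismatch signals, so low values are noisy, and a pseudocount understates the change of dim genes.

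From the intensities, log2(value + 51.78) was computed, 51.78 being the 20th percentile of all values. Probe sets with a mean above 174.1, the 40th percentile, were kept (32747 probe sets and 13613 genes). limma 3.58.1 in R 4.3.3 (lmFit, eBayes with a mean-variance trend) was fitted to the 6 arrays, with a mean per line, leaving 3 residual degrees of freedom. P-values are two-sided, adjusted by Benjamini-Hochberg over the tested probe sets of each comparison and called at 0.05. The script was tested on simulated data. The number of arrays limits the precision.

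Samples were grouped by title. For the second TEM2-5 array the source name reads replicate 1 and the title 2, and the title was used. The labels describe an RNA quality check for 3 of the 6 arrays, which are both PC-3 arrays and the first TEM4-18 array. Every member gene is described by its brightest probe set. Array values are printed for genes past the threshold with a change of at least 1.5-fold and for the regulators. Of the further lipid genes, the 5 largest called changes per comparison are named. EBP, INSIG1 and SCD in the signal plot, and array values of SCD, were chosen after their values were seen, as were the promoters printed. The members and lists were chosen with earlier results of these data known. The 14 alternatives covered the pseudocount, filter, normalization, variance trend, replicate block, each array left out and probe sets averaged. Scans and detection calls were not used here.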

Additional observations from a re-analysis of the deposited data

How the results depend on the processing

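The comparison of TEM4-18 with TEM2-5 kept 0 called genes of the 28 under all 14 alternatives. Against PC-3, no called gene changed direction, and sign changes of values that passed in neither setting were not counted. Pseudocounts of 1 or 4 times the main one, the filter at the 60th percentile and quantile normalization kept every count of calls within 1.5 times. In TEM4-18, 10 lower genes became 4 without the variance trend and 6 to 12 with 1 array left out. The 1 higher gene became 0 without the trend, 2 with probe sets averaged and 0 to 2 with 1 array left out. For the sterol pathway, 8 lower became 4 without the trend, 5 averaged and 4 to 8 with 1 array left out, and 1 higher became 0 without the trend and 0 to 2. For fatty acid synthesis, 1 lower became 0 without the trend, 3 averaged and 1 to 2, and 0 higher became 1 averaged. The 1 lower regulator became 0 without the trend and 1 to 2.

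In TEM2-5, 11 lower became 7 without the filter, 3 without the trend, 6 averaged and 4 to 9 with 1 array left out, and 0 higher became 0 to 1. For the sterol pathway, 9 lower became 3 without the trend, 3 averaged and 4 to 7, and 0 higher became 0 to 1. For fatty acid synthesis, 1 lower became 0 without the filter or the trend, 2 averaged and 0 to 1. The 1 lower regulator became 0 without the filter or the trend, and 0 to 1. Calls over the whole array moved too. Of all tested probe sets, 4194 were lower in TEM4-18 and 2487 in TEM2-5, which became 2696 and 1084 without the trend. Without the filter they became 3537 and 1802, and fewer were lower with any 1 array left out. With probe sets averaged, 1927 and 1173 genes were lower, beside 2183 and 1370 in the main fit by brightest probe set. Dropping the filter adds tests, and leaving out an array removes samples. The cause of the other changes was not tested.

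Deviations of same-numbered arrays correlated by 0.098, 0.062 and 0.081 over 3 pairs of lines, and the labels do not say that the numbers mark pairs. With the replicate block, 2 genes were higher in TEM4-18 (2 in the sterol pathway) and 1 in TEM2-5 (1 in the sterol pathway), and 2 fatty acid genes were lower in each. Lower genes of all 28 were then 13 and 12. Calls over all tested probe sets also rose with the block, in TEM4-18 from 4202 higher and 4194 lower to 4738 and 4705. In TEM2-5 they rose from 2839 higher and 2487 lower to 3369 and 3060. Precision rests on 2 arrays per line and 3 residual degrees of freedom, and MVD, with low signals, had SEs of 0.38 on the log2 scale.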
